A study of Solanum phureja with 20 samples.

Results

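This account describes the array spots whose signal was strongly raised in root tips of diploid potato plants over those of the monoploid they derive from. A spot was chosen by R, the mean log2 ratio of diploid over monoploid on the 4 root arrays that paired the monoploid with a diploid line. R had to be 1 or more, with a value on all 4 arrays, and the spot's gene symbol had to be missing or made of LOC numbers, NCBI's placeholder symbols for genes without a given name. By this rule 585 of 15881 spots with 4 values were members, or 3.68%, of 32448 spots on the array. Read as duplicate prints, the members belonged to 340 clones, 245 with both spots chosen and 95 with 1. A log2 ratio of 1 is a 2-fold difference.

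The plants were Solanum phureja potatoes of one ploidy series, made by repeated chromosome doubling of a monoploid with 12 chromosomes. Its lines were the monoploid (1x), the tetraploid (4x) and a pair of diploids called 2xR3 and 2xR5, and genotype was the only treatment. RNA came from growing root tips on day 7 after planting (8 arrays, amplified RNA, replicates 4 and 5) and, on day 20, from leaflets in growth, with 6 plants per line (12 arrays, replicates 1 to 3). All plants grew under 15 h of light and 9 h of dark, at 23.5 °C by day and 15.5 °C by night, and 50% humidity. Each array carried 1 line in Cy3 and another in Cy5. Each replicate of root tips, and leaf replicates 1 and 2, closed a loop in which 1x and 4x each met both diploids. Leaf replicate 3 held dye-swapped pairs of 1x with 4x and of 2xR3 with 2xR5. Each line is a single line of a single genotype, and the labels call the replicates biological without saying which plants made up each, so a p-value here covers the spread among these samples of RNA.

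In an autopolyploid every chromosome set is a copy of the same genome. Lines of such a series should differ in gene dosage and in what follows doubling rather than in the genes they carry. Whether these lines differ in other ways was not tested. Doubled plants of many species have larger cells than their progenitor. A root tip holds the dividing meristem, the elongating cells behind it and the cap in front of it, and its RNA is a mixture of all of these. A 2-colour ratio compares each transcript with all others in the same RNA, so a rise of all RNA per cell alike is not seen in it. More cells of a kind cannot be told apart from a change of one transcript within a cell.

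Signs assume Cy5 over Cy3 as the direction of the deposited ratios, the likely one, although no label states it. If the reverse held, the chosen spots would be those low in the diploids, and every size and p below would stay. Between 17128 and 17829 spots had a value on a root array. The 4 arrays that chose the members were wider than the other 4 root arrays, with a standard deviation of 0.548 to 0.613 over all spots against 0.221 to 0.254. With the arrays scaled to a common spread, 343 spots would have been members. Whether the width came from the RNA or from the arrays was not tested.

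The chosen spots reached from just over the threshold to a 5.17 log2 difference. Their median R was 1.69, a 3.22-fold difference, against -0.012 for all spots with 4 values. R lay between 1 and 2 for 362 members, between 2 and 3 for 122 and at 3 or more for 101. The opposite side was far thinner: 34 spots, or 0.214%, had R at -1 or less. These values are what chose the members and are given as description. At the threshold stood spots 144322 (R = 1.001) and 162535 (R = 1.0015) inside it, and spots 159707 (R = 0.99875) and 160885 (R = 0.99725) outside it.

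**Figure D1:**
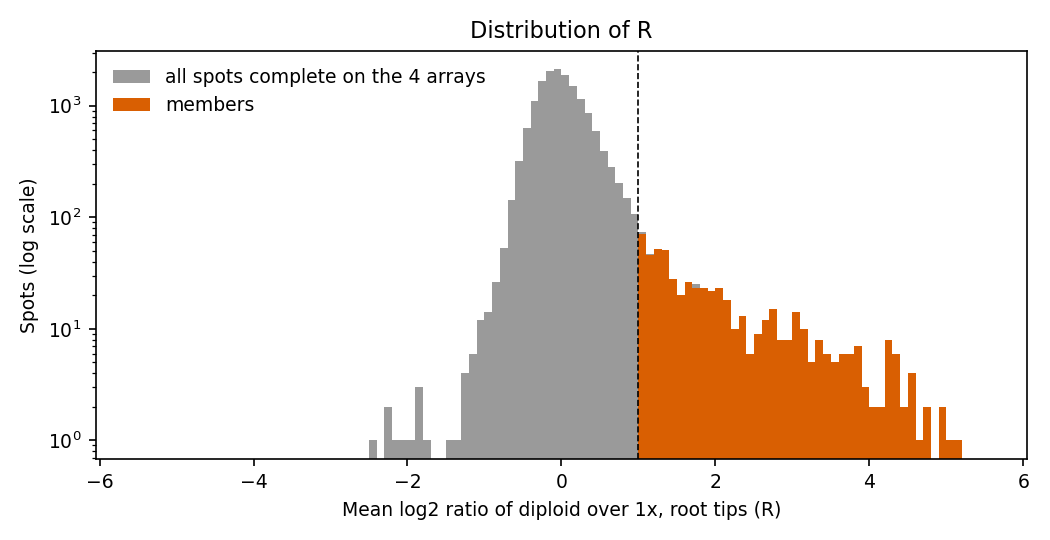
Histogram of R, the mean log2 ratio of diploid over 1x on the 4 root arrays, for all 15881 spots with 4 values (grey) and for the 585 members (orange), with spot counts on a log axis and the threshold of 1 as a dashed line. The right tail reaches 5.17, while 34 spots lie at -1 or less. The few grey counts to the right of the line are the 6 spots left out for their symbol.

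A further 6 spots passed R of 1 but carried another symbol and were left out by the rule. They were both spots of VPE2 (R of 1.14 and 1.05), whose symbol is that of a vacuolar processing enzyme, both of XIP1-1-BETA (1.77 and 1.71), an X-intrinsic-protein aquaporin, and both of a clone with several symbols (1.07 and 1.06).

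On the 4 arrays that chose them, nearly every member was raised in both diploid lines and in both replicates. The rule itself favours this, so the values here are given as description. On the single arrays the median member stood at 1.57 (2xR3, replicate 4), 1.60 (2xR5, replicate 4), 1.84 (2xR3, replicate 5) and 1.79 (2xR5, replicate 5). Of the 585 spots, 576 were above 0 on all 4 arrays, 543 at 0.5 or more and 370 at 1 or more. Without their highest array 59 members would have had a mean under 1. Replicate 5 gave the larger value for 392 members, and the median of R was 1.57 in replicate 4 and 1.77 in replicate 5. The diploid lines had medians of 1.73 (2xR3) and 1.67 (2xR5).

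The deposited ratios were rounded to 2 decimals, which coarsens the largest values. On the 2 arrays with 1x in Cy5, where a raised spot has a small ratio, 65 of 1170 member values came from a ratio of 0.05 or less and 3 from 0.01, the lowest that was deposited. A step of one unit there is a large step on the log2 scale, so the order among the highest members has little meaning.

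**Figure D2:**
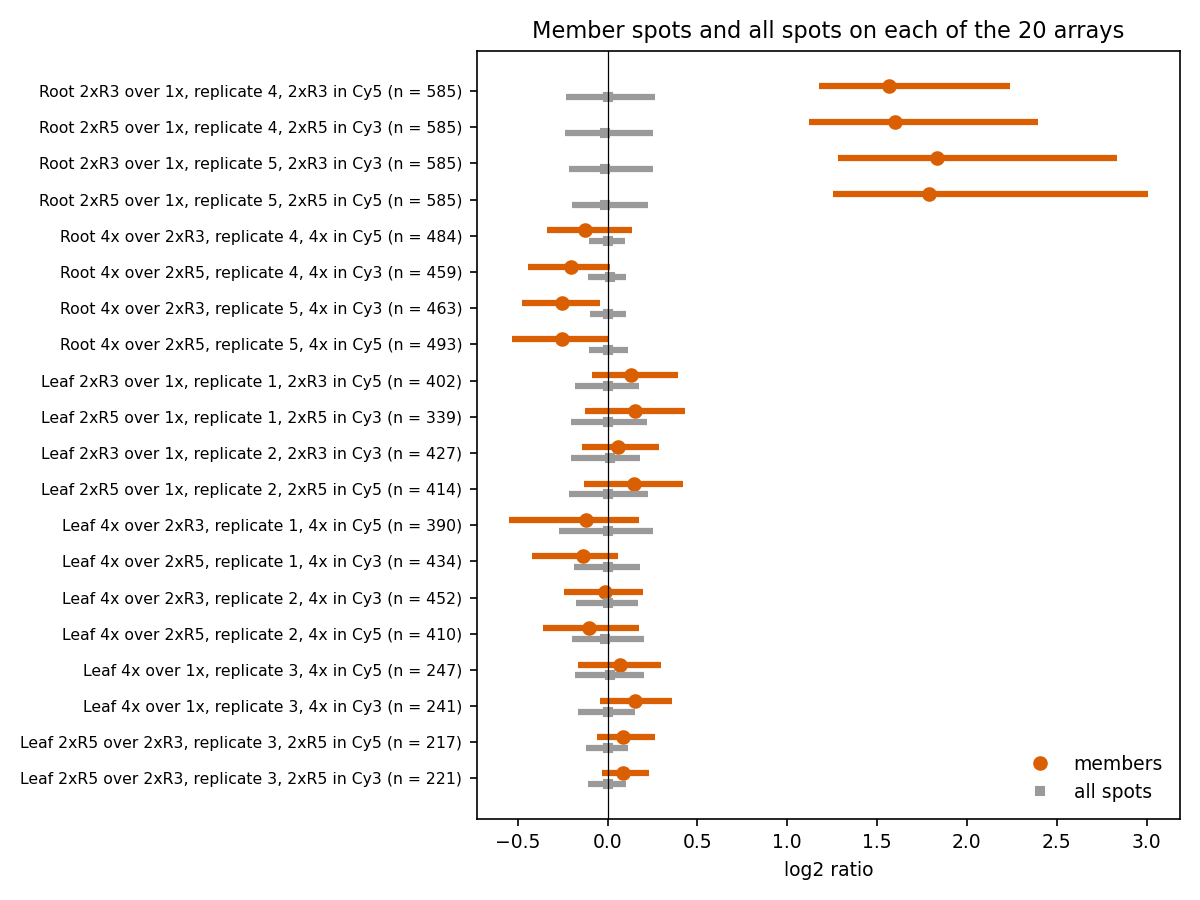
Median (point) and interquartile range (bar) of the log2 ratio on each of the 20 arrays, for the member spots with a value (orange, number in brackets) and for all spots with a value (grey). Members sit between medians of 1.57 and 1.84 on the 4 arrays that chose them, below 0 on the 4 root arrays of 4x with a diploid, and within 0.151 of 0 on the leaf arrays.

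Most of the members have no gene symbol in the annotation used here. No symbol was given for 549 spots (319 clones), 1 LOC symbol for 31 spots (18 clones, 14 genes), and the same string of 4 LOC symbols for 5 spots (3 clones). The annotation gives symbols without descriptions, so no function is given for a LOC gene, and clones without a symbol are named by their spot. Members lay in all 48 print grids of the array, at 1.39% to 5.92% of the spots with 4 values in a grid.

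The highest member clones had no symbol. The clone of spots 158864 and 159708 stood at 2.94, 5.64, 4.85 and 6.78 on the rule arrays (2xR3 in replicates 4 and 5, then 2xR5 in replicates 4 and 5). The clone of spots 158882 and 160741 stood at 3.67, 4.64, 5.64 and 6.06 in the same order. Both lines were far above 1x in both replicates, and the highest value of each clone was 2xR5 in replicate 5. The next clones by R were those of first spots 136783 (mean 4.69), 131934 (4.56), 158223 (4.54) and 140436 (4.50), with single arrays between 2.99 and 5.64.

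Among the clones with exactly 1 symbol, that of LOC102577927 was the highest. Its clone stood at 2.92 and 4.06 for 2xR3 and at 4.32 and 3.96 for 2xR5 in replicates 4 and 5. LOC102577779 had 2 clones, at 1.58, 3.47, 2.49 and 3.75 and at 1.55, 3.12, 2.44 and 3.01 in the order 2xR3 replicates 4 and 5, 2xR5 replicates 4 and 5. Both clones were higher in replicate 5 than in replicate 4 in either line. LOC102586657 was more even, at 2.21, 2.70, 2.73 and 2.53. Further down stood LOC102577893 (clone mean 1.84) and LOC102598951 (1.72), then LOC102577568 (1.40), LOC102577514 (1.37), LOC102577559 (1.33), LOC102577854 (1.22), LOC102606273 (1.11), LOC102599567 (1.08), LOC102577576 (1.04) and LOC102601763 (0.95). The last of these is under 1 because only 1 of its spots was a member. The 3 clones with several LOC symbols had means of 3.93, 3.63 and 1.07. A single array went the other way: LOC102577559 stood at -0.07 for 2xR3 in replicate 4 and at 2.44 in replicate 5. Several other clones also differed by more than 1 between replicates in a line. Among them were LOC102577576 (0.15 and 1.69 for 2xR3 in replicates 4 and 5) and LOC102599567 (1.60 and 0.28 for 2xR5). LOC102577568 was another, at 0.60 and 1.86 for 2xR3 and at 0.76 and 2.38 for 2xR5.

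**Figure D3:**
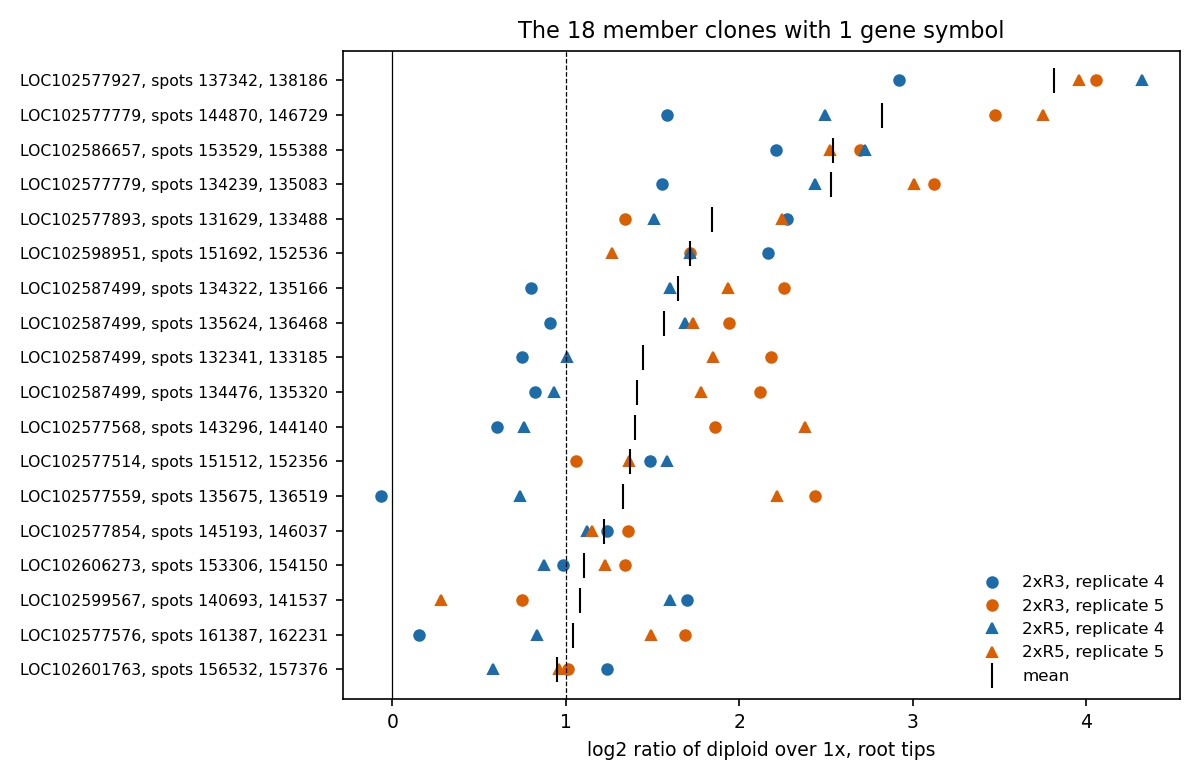
The log2 ratio of diploid over 1x in root tips for the 18 member clones with 1 gene symbol, 1 point per array, coloured by replicate and shaped by diploid line, with the mean of the 4 arrays as a bar and the threshold of 1 dashed. LOC102577854 and LOC102606273 are tight across the arrays, while LOC102577559 runs from -0.07 to 2.44.

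Clones listed under LOC102587499 fell on both sides. Its 4 member clones had clone means of 1.41, 1.45, 1.57 and 1.65, and every one of their 16 rule-array values was at 0.75 or more. In 2xR3 they were at 0.75 to 0.91 in replicate 4 and at 1.94 to 2.26 in replicate 5. The other 6 clones under this symbol had means of -0.53 to -0.10, and none of their rule-array values was above 0.11. In leaf 5 of these 6 had a value on any array of diploid over 1x, with means of -0.28 to 0.32, the highest from 1 array alone, while the member clones were at 0.29 to 0.96 on each of those 4 arrays. Which of these clones measure the transcript of the annotated gene was not tested. A second clone of LOC102577514, not a member, stood at 0.41 in root diploids over 1x.

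**Figure D4:**
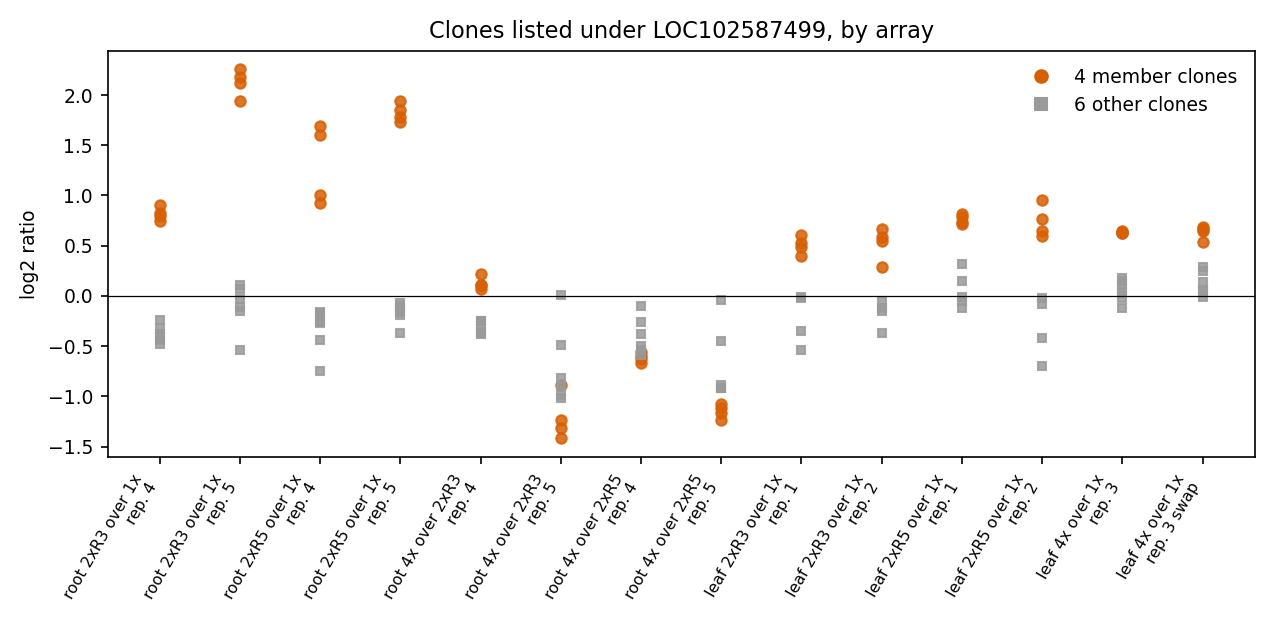
Log2 ratios of the 4 member clones (orange circles) and the 6 other clones (grey squares) listed under LOC102587499, on 14 arrays named under the axis. The groups are apart on all 4 root arrays of diploid over 1x, where members are at 0.75 or more and the others at 0.11 or less, and they overlap on 2 of the 4 root arrays of 4x over a diploid.

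In root tips the tetraploid stood nearer to the diploids than to 1x for the median member. Over the 240 member clones with values on all 8 root arrays, the estimate of 4x over 1x had a median of 1.28, against 1.41 for the diploids over 1x. It was above 0 for all 240, from 0.12 to 4.88, and 1 or more for 174. Both medians rest on the 1x samples that chose the members and are given as description.

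Whether 4x differed from the diploids could be read on 4 root arrays that the choice did not use, although the diploid RNA was the same. Here the members were mostly lower in 4x. On all 4 of these arrays 143 of 379 member spots with values were below 0, or 37.7%, against 9.86% of all 15662 such spots. Above 0 on all 4 were 13, or 3.43%, against 9.92%. The median of the mean log2 ratio was -0.21 (interquartile range -0.36 to -0.05), against 0.006 for all spots. Medians on the single arrays were -0.13 (4x over 2xR3) and -0.20 (4x over 2xR5) in replicate 4, and -0.25 for each in replicate 5.

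The choice and the reading were also taken from different RNA. Spots chosen by the mean of replicate 4 alone were read on the 4x arrays of replicate 5, and 276 of 451 were below 0 on both, or 61.2%, against 28.3% of all spots. Spots chosen on replicate 5 alone and read in replicate 4 gave 261 of 511, or 51.1%, against 27.9%. Their medians were -0.22 and -0.15. This reading was added with the data in view.

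Missing values touch this comparison. Of the members 64.8% had a value on all 4 of these arrays, against 93.5% of all spots with 4 values on the rule arrays, and 32 members (5.47%, against 0.271%) had none. The share with all 4 values was 74.9% for members with R from 1 to 2, 51.6% from 2 to 3 and 44.6% from 3. Below 0 on all 4 arrays were 101 of 271 members with R from 1 to 2 (median -0.19), 20 of 63 from 2 to 3 (median -0.16) and 22 of 45 from 3 (median -0.59), so the fall did not grow steadily with R. Above 0 on all 4 were 8, 5 and 0. The sources used here do not say why values are missing.

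Clone by clone, 0 of 240 member clones passed in limma with Benjamini-Hochberg adjustment over all 8245 clones of the tissue, of which 0 were called in either direction (0%). The arrays that chose the members enter the spread of this fit as well, so its p-values are not free of the choice. At an unadjusted p under 0.05 there were 64 lower and 10 higher members in limma, where all clones gave 4.35% lower and 2.7% higher. The median member was at -0.19, against 0.007 over all clones. Scaling the arrays to a common spread gave 4 calls among the 240 (2 higher, 2 lower), against 13 of all 8245 clones (0.158%). Over the 97 member clones and 5121 clones in all that were measured in both tissues, a joint fit, added with the data in view, called 4 members, all lower, against 17 clones (0.332%). Without replicate 4 or replicate 5 a single root replicate was left and leaf alone supplied the spread, so only sizes are given. The median over the 97 members was -0.26 without replicate 4 (all clones -0.004) and -0.11 without replicate 5 (all clones 0.015).

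Of the genes with a symbol, the 4 member clones of LOC102587499 had estimates of -0.62 to -0.78 in 4x against the diploids, with adjusted p of 0.611 to 0.717 in limma. Replicate 4 gave -0.22 to -0.27 and replicate 5 -0.98 to -1.29. On single arrays the 4x over 2xR3 values were at 0.07 to 0.22 in replicate 4 and at -1.42 to -0.88 in replicate 5, while 4x over 2xR5 was below 0 in both. The 6 other clones under this symbol had estimates of -0.71, -0.69, -0.66, -0.63, -0.36 and -0.09, so most of them were about as low in 4x as the member clones. LOC102577514 stood at -0.38 ± 0.10 (SE, n = 2; limma, adjusted p = 0.472), with -0.34 and -0.42 in the replicates. LOC102586657 stood at -0.33 ± 0.12 and LOC102598951 at -0.44 ± 0.17. LOC102577927 (-0.12), the clones of LOC102577779 (-0.18 and -0.23), LOC102606273 (-0.05) and LOC102577854 (0.07) were nearer 0 and had opposite signs in the 2 replicates. LOC102599567 (-0.37), LOC102577559 (0.19) and LOC102601763 (0.14) were tested as well, while LOC102577568, LOC102577576 and LOC102577893 lacked a value on a root array with 4x and were not.

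The 2 diploid lines, of equal ploidy, were also compared in root tips. R averages over both lines and does not hold their difference. The arrays that chose the members still enter this estimate and its spread, so the comparison is not free of the choice. Over all 240 tested members no common direction showed, with 118 clones above 0 and 122 below. Their median was -0.005, against 0.003 over all clones. Members with R of at least 1.5 leaned to 2xR5, with 72 clones above 0, 42 below and a median of 0.077. With the arrays scaled to a common spread, 129 members were above 0 and 111 below, with a median of 0.044. In limma 0 of 240 members passed (all clones 0% in either direction). At an unadjusted p under 0.05 there were 12 higher in 2xR5, against 1.54% of all clones, and 13 lower, against 2.11%. The member with the largest estimate was the clone of spots 158882 and 160741, at 1.54 ± 0.31 in 2xR5 over 2xR3 (SE, n = 2; limma, adjusted p = 0.998), with 1.80 and 1.27 in the replicates. It was singled out after its values were seen. LOC102577927 differed between the lines by 1.32 in replicate 4 and by -0.02 in replicate 5.

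Leaf arrays shared no RNA with the choice. Of 309 member spots with values on all 4 leaf arrays of diploid over 1x, 0 had a mean of 1 or more. The share over all 14980 such spots was 0.0801%, so this count does not set the members apart. The members were nonetheless more often above 0 than all spots. On all 4 arrays 93 of 309, or 30.1%, were above 0, against 15.5% of all spots, and 18, or 5.83%, were below 0, against 15.4%. By class of R, above 0 on all 4 were 69 of 216 members with R from 1 to 2 (31.9%), 19 of 59 from 2 to 3 (32.2%) and 5 of 34 from 3 (14.7%), so the highest members were not above 0 more often than all spots. The median member stood at 0.10 (interquartile range -0.06 to 0.32) and all spots at 0.0035. Across the 309 spots the leaf mean and R in root had a Pearson correlation of -0.083, given as description, since the spots share arrays and clones. Leaf coverage of the members was low: 30.6% had a value on all 12 leaf arrays, against 52% of all spots with 4 values on the rule arrays.

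In limma 121 member clones could be tested in leaf, of 6001 in all. Between the diploids and 1x, 30 were higher, or 24.8%, against 7.5% of all clones, and 3 were lower, against 9.07%. Leaving out replicate 1 left 0 calls and leaving out replicate 2 left 1, against 22 and 11 of all 6001 clones (0.367% and 0.183%, down from 994), with a single loop beside replicate 3 in each case.

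Of the member clones with a symbol, those of LOC102587499 held the highest call in leaf. The clone of spots 134476 and 135320 read 0.53 and 0.67 for 2xR3 over 1x in replicates 1 and 2, and 0.81 and 0.76 for 2xR5 over 1x. All 4 arrays were above 0 and close together. The fit gave 0.76 ± 0.09 (SE, n = 2; limma, adjusted p = 0.0015), and 0.69, 0.69 and 0.66 for the other 3 member clones, all past the threshold. The tested clones under this symbol that are not members did not rise, at -0.23, -0.16, -0.09 and -0.01. A fitted value can lie outside both loops, since replicate 3 enters through its pair of 1x and 4x. LOC102577779 rose by 0.69 ± 0.15 and 0.53 ± 0.13 in its 2 clones (limma, adjusted p = 0.0137 and 0.0223). LOC102577927 rose by 0.59 ± 0.14 (limma, adjusted p = 0.0198), with leaf arrays at 0.71 and 0.21 for 2xR3 and at 0.57 and 0.81 for 2xR5. Each of these calls was lost without replicate 1 and without replicate 2, with estimates of 0.38 to 0.85. The lower clone of LOC102577779 also did not pass with the arrays scaled to a common spread (limma, adjusted p = 0.055).

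Of the member genes with a symbol that were tested and did not pass in this comparison, LOC102577893 stood at 0.37, LOC102586657 at -0.12, LOC102606273 at -0.03 and LOC102577576 at -0.60. The last had -0.93 in replicate 1 and 0.19 in replicate 2. LOC102577514, LOC102577559, LOC102577568, LOC102577854, LOC102598951, LOC102599567 and LOC102601763 lacked values on some leaf arrays and were not tested in leaf. The clones without a symbol that were named by rule rose by 0.75 ± 0.10 (spot 147807), 0.74 ± 0.09 (spot 132144) and 0.69 ± 0.15 (spot 144882) in limma, at adjusted p of 0.0016, 0.0016 and 0.0134. In root their means had been 1.09, 1.13 and 2.69. The call of spot 147807 was lost without replicate 1, and the other 2 without replicate 1 or 2. Without replicate 1 the estimate of spot 144882 was 0.40.

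Against 1x, leaf 4x had 32 higher member clones, or 26.4%, against 19.9% of all clones, and 17 lower, or 14%, against 19.9%. The median member was at 0.05 and all clones at 0.015. This comparison shares the 1x samples with the last one, so the 2 are set side by side only. The member clones of LOC102587499 rose by 0.39, 0.38, 0.35 and 0.32 (limma, adjusted p of 0.0052 to 0.0242). Replicate 1 gave 0.04 to 0.23, replicate 2 0.17 to 0.37 and the dye-swapped arrays of replicate 3 0.59 to 0.67. The clone of spot 158673 rose most, by 1.02 ± 0.12 (SE, n = 3; limma, adjusted p = 4.2e-04), with 0.95, 1.20 and 0.91 in the replicates. Spot 132144 rose by 0.88 and spot 147807 by 0.78. LOC102606273 fell by 0.52 ± 0.11 (limma, adjusted p = 0.0055). Its replicates gave -0.34, -0.77 and -0.46. A clone with several LOC symbols (spot 145027) fell by 0.24. Without replicate 2 the members called were 7 (5.79%, against 3.23% of all clones), and 27 without replicate 1 (22.3%, against 20.6%). The calls of all 4 LOC102587499 clones and of LOC102606273 were lost without replicate 2, and those of 3 LOC102587499 clones also without replicate 3, at 0.16 to 0.25. LOC102587499 spot 132341 was lost without replicate 1 too. The call of spot 145027 was lost without replicate 1, without replicate 2, at -0.14, and with no replicate block, while spots 158673, 132144 and 147807 passed without any 1 replicate.

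In leaf, members were also more often under the diploids in 4x than all spots were. This comparison shares the diploid samples with that of the diploids and 1x in leaf. Below 0 on all 4 leaf arrays of 4x over diploid were 79 of 334 member spots, or 23.7%, against 10.5% of all 15687, and above 0 on all 4 were 16, or 4.79%, against 10.9%. The medians were -0.07 for the members and 0.011 for all spots. By class of R, 51 of 235 members from 1 to 2 (median -0.06), 14 of 62 from 2 to 3 (median -0.08) and 14 of 37 from 3 (median -0.23) were below 0 on all 4. In limma 8 member clones of 121 were lower, or 6.61%, against 1.35% of all clones, and 4 were higher, or 3.31%, against 1.95%. Without replicate 1 or without replicate 2 the count of members was 0, as it nearly was for all 6001 clones (0 and 1). Without replicate 3 it was 32 (26.4%), against 520 of all clones (8.67%). Scaling the arrays to a common spread left 5 (4.13%), against 110 (1.83%).

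The largest of these calls was a clone without symbol. The clone of spots 142790 and 144649 read -1.24 and -1.06 for 4x over 2xR3 in replicates 1 and 2 and -1.97 and -1.40 for 4x over 2xR5, so every array was far below 0. Its estimate was -1.26 ± 0.16 (SE, n = 2; limma, adjusted p = 0.0046). The clones of spots 154107 and 140644 fell by 0.88 ± 0.18 and 0.78 ± 0.13 (limma, adjusted p = 0.0245 and 0.0105). Of the named genes LOC102606273 passed, at -0.49 ± 0.11 (limma, adjusted p = 0.044), with -0.57 and -0.43 in the replicates. With the arrays scaled to a common spread, LOC102606273 and the clones of spots 154107 and 140644 no longer passed (limma, adjusted p of 0.072 to 0.108). LOC102577893 stood at -0.57, LOC102577779 at -0.48 and -0.39, LOC102577927 at -0.43 and the LOC102587499 clones at -0.37 to -0.30, with adjusted p of 0.054 to 0.116 in limma. LOC102577576 stood at 1.37 (limma, adjusted p = 0.060), from 2.49 in replicate 1 and 0.72 in replicate 2.

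**Figure D5:**
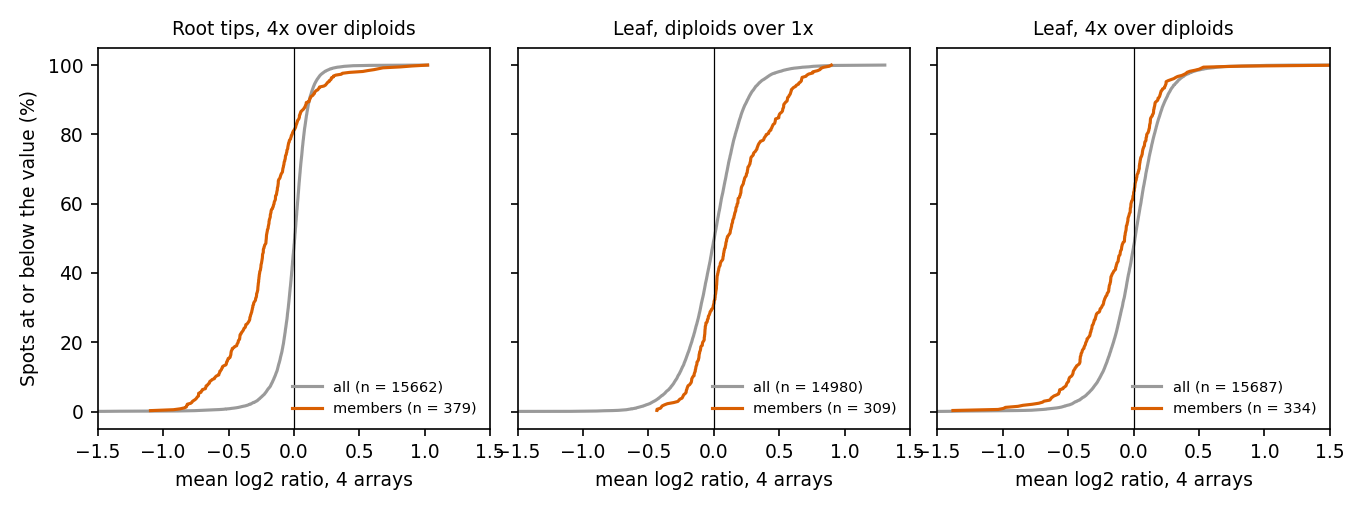
Cumulative share of spots by their mean log2 ratio over 4 arrays that the choice of members did not use, for all spots with 4 values (grey) and for members (orange), drawn between -1.5 and 1.5. Members lie to the left of all spots for 4x over diploids in root tips (medians -0.21 and 0.006) and leaf (-0.07 and 0.011), and to the right for diploids over 1x in leaf (0.10 and 0.0035).

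Between the diploid lines 0 of 121 member clones passed in leaf in limma, and 0% of all clones in either direction. At an unadjusted p under 0.05 there were 19 members higher in 2xR5 and 2 lower, against 5.2% and 3.43% of all clones. The median member was at 0.06, against 0.007. On the dye-swapped arrays of these 2 lines the median member read 0.084 and 0.088, each with 2xR5 as numerator.

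Whether the step from diploid to tetraploid differed between root tips and leaf was tested for the 97 member clones measured in both. The test called 3, all lower in root than in leaf, or 3.09%, against 1.21% of all 5121 clones below and 0.234% above. The root side shares its diploid RNA with the choice of members, and the leaf side does not. Choosing high diploid values can by itself lower the root side, and how far it did was not tested. The arrays that chose the members also enter the spread of this fit. The clone of spots 151901 and 152745 read -0.59 and -0.72 for 4x over 2xR3 and -0.71 and -0.92 for 4x over 2xR5 in root replicates 4 and 5, against -0.34 to 0.37 on the leaf arrays. Its root estimate of -0.73 and leaf estimate of 0.05 differed by -0.79 (limma, adjusted p = 0.0032). For spot 131236 the values were -0.62 and 0.03 (limma, adjusted p = 0.0184), and for spot 159520 they were -0.61 and 0.03 (limma, adjusted p = 0.0142).

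Markers of other cell states could be read only as differences between lines, since no array gave a level. In root diploids over 1x, ADH1, an alcohol dehydrogenase of fermentation under low oxygen, stood at -2.27, and lactate dehydrogenase LDH-2 at -0.07. The wound-related genes STWRKY8, PPO (polyphenol oxidase) and POTLX-3 (a lipoxygenase) stood at 0.55 and 0.59, 0.35, and 0.33. CYCD3.3 stood at 0.38 and CYCD3.2 at 0.30, both of them D-type cyclins of the cell cycle, and the starch synthase GBSS stood at -0.37 and -0.24. The photosystem gene PSBR stood at 0.03 and -0.22. All of these but ADH1 differed by less than the lowest member. In root 4x over the diploids, ADH1 stood at -2.43, CYCD3.3 at -0.27, STWRKY8 at -0.22 and -0.23 and PPO at -0.13, below 0 like most members, CYCD3.2, POTLX-3 and LDH-2 at -0.04, -0.03 and -0.02, and GBSS (0.05 and 0.10) and PSBR (0.04 and 0.12) above 0. In leaf diploids over 1x, STWRKY8 stood at 0.52, GBSS at 0.40 and 0.26, ADH1 at 0.18, PSBR at 0.11 and 0.17 and CYCD3.3 at -0.92. In leaf 4x over the diploids the same genes stood at -0.43, 0.45 and 0.35, 0.16, -0.36 and -0.38, and 0.41. The part of these genes' cell states in the members' differences was not tested.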

How the data were processed

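Expression was measured on 20 two-colour arrays. The authors deposited log2 ratios of the 2 channels per spot, made with limma per the submitters' processing notes. Its version and the background correction are not given in the sources used here. All values matched the log2 of a ratio of 2 decimals within 0.002, and array medians lay within 0.014 of 0. No intensities were used, so signal over background could not be examined, and the number of arrays limits precision.

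Ratios were turned to a common direction. A clone is the mean of its duplicate spots with a value (15360 pairs, inferred from the print layout). Line values were solved per replicate by least squares, so that the replicate is a block by construction, and fitted per tissue with limma 3.58.1 in R 4.3.3 (lmFit, eBayes), with Benjamini-Hochberg adjustment at 0.05 over all clones with complete values. Residual degrees of freedom were 5 in leaf and 3 in root. The fits were tested on simulated data. No root diploid against 1x contrast was tested, since it chose the members.

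All members with exactly 1 LOC symbol were named, with the 6 highest clones without one and, per comparison, the 3 largest calls with the same sign in every replicate. Members and lists were chosen with earlier results of these data known. Symbols came from the platform annotation. No sequence was used here.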

Additional observations from a re-analysis of the deposited data

Results flagged for a closer look

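In the step from diploids to 4x, 3 member clones differed between tissues by a test of the difference itself (limma, Benjamini-Hochberg). The root side shares its diploid RNA with the choice of members, which can lower it, and how far it did was not tested. Root minus leaf was -0.79 for the clone of spot 151901, -0.65 for spot 131236 and -0.65 for spot 159520, and in each the fall was in root tips. The members passing this test numbered 1 without replicate 1, 0 without replicate 2 and 3 without replicate 3. Over all 5121 clones the counts were 43, 0 and 115, against 74 with all replicates. Without replicate 4 or 5 a single root replicate is left, so only sizes are given. The median member was then at -0.19 without replicate 4 and -0.02 without replicate 5, against -0.12 with all replicates.

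LOC102577854 was above 0 on all 4 root arrays of diploid over 1x, between 1.12 and 1.36, and below 0 on all 4 such leaf arrays, with a leaf mean of -0.20 and values of -0.04, -0.14, -0.20 and -0.41. It was picked because all arrays of one tissue lay on the opposite side of 0 from all arrays of the other, and the difference was not tested. The root side follows from the choice of members, so only the leaf side was free. Below 0 on all 4 leaf arrays were 5.83% of member spots and 15.4% of all spots, so the leaf sign alone does not set this clone apart.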

How the results depend on the processing

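With a robust eBayes fit, and with only clones whose spots were both members, all 7 counts of members called were within 1.5 times the reported ones. Scaling the arrays to a common spread left 343 of 585 member spots and 197 of 340 clones, gave 5 calls for leaf 4x against diploids (12 in the report), 4 for root 4x against diploids (0) and 6 for the difference between tissues (3). The fit with no replicate block gave 25 calls for leaf 4x against diploids and 2 for root 4x against diploids, and changed no other count by over 1.5 times. Members with R of at least 1.5 gave 19 leaf calls for diploids against 1x (33), 24 for 4x against 1x (49) and 6 for 4x against diploids (12), from fewer clones tested. A value on at least 75% of arrays gave 6 calls for the difference between tissues, and single spots gave 5. The joint fit with leaf, added with the data in view, gave 4 for root 4x against diploids and 3 for 2xR5 against 2xR3 (0). Leaving out 1 replicate at a time, the calls ran from 0 to 30 for leaf diploids against 1x, from 7 to 50 for leaf 4x against 1x, from 0 to 32 for leaf 4x against diploids, from 4 to 16 for root 4x against diploids, from 1 to 1 for root 2xR5 against 2xR3 and from 0 to 10 for the difference between tissues. For the root comparisons these counts came from the joint fit with leaf, over 97 member clones and 5121 clones in all. The reported 0 calls came from the root fit, over 240 and 8245. Without replicate 4 or 5 a single root replicate was left and leaf alone supplied the spread. The root counts, and the 10 for the difference between tissues, therefore cannot be set against the reported ones. Of 23 named calls in leaf, 16 were lost without replicate 1, 19 without replicate 2 and 3 without replicate 3, and none changed sign. Scaling the arrays to a common spread lost 4, the fit with no replicate block 1, and a value on at least 75% of arrays 1. The root fit has 3 residual degrees of freedom. The shares of member spots on one side of 0 ranged from 35.2% to 38.9% (root 4x over diploids), 30.1% to 30.5% (leaf diploids over 1x) and 22.4% to 25.7% (leaf 4x over diploids) under the stricter choices of members. The cause of the changed counts was not tested.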
